A study of Mus musculus with 6 samples.

Results

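The transcripts of the Tcf/Lef factors Tcf7, Tcf7l1, Tcf7l2 and Lef1, of beta-catenin (Ctnnb1) and of the Wnt feedback genes Axin2 and Nkd1 were followed in embryonic mouse epidermis that had lost Sox4, Sox11 or both. The 7 genes were taken by name. Every probe whose accession carried such a symbol was used, which gave 13 probes of the 55681 non-control probes on the array and 7 of the 21368 genes that could be named. Epidermis was collected at E16. The floxed mice were of mixed 129SvEx:C57BL/6 background and the Krt14-Cre mice of FVB/N background. Each of 6 two-colour arrays compared a conditional knockout with a wild-type littermate control, with the dyes swapped between the 2 biological replicates of a genotype. The genotypes were Sox4 cKO, Sox11 cKO and dcKO, the knockout of both genes. The deletions were driven by Krt14-Cre in mice with loxP-flanked Sox4 and Sox11 alleles, so that cells in the peeled epidermis that never expressed keratin 14 kept both genes. The floxed parents named in the study's methods were also Sox12-/-, and whether the embryos used here, controls included, carried that allele is not given in the sources used here. The genotype of the controls is given only as wild-type littermate, and whether a sample held 1 embryo or several is not given.

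In canonical Wnt signalling, a secreted Wnt protein bound to Frizzled and Lrp receptors stops the destruction complex of Axin, Apc and Gsk3 from degrading beta-catenin. Beta-catenin then enters the nucleus and binds Tcf/Lef proteins, which sit on DNA through an HMG box and otherwise recruit Groucho/TLE co-repressors. In skin this pathway starts the hair follicle placode, where Lef1 is high, while Tcf7l1 acts largely as a repressor in epidermal progenitors. Axin2 and Nkd1 are induced by the pathway and dampen it. Sox4 and Sox11 proteins also bind DNA through an HMG box.

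None of the 7 genes passed in any comparison. In dcKO epidermis 0 of 7 reached an adjusted p under 0.05, where 0.833% of all probes did (limma, Benjamini-Hochberg over all probes, 464 probes), and 0 of 7 passed the study's added fold threshold of 1.5 log2 units, where 0.207% did. The count was again 0 of 7 for Sox4 cKO, with 0.00539% of all probes called, and for Sox11 cKO, with 0% called. The lowest values in dcKO were those of Tcf7l1, at −0.44 on the log2 scale, and of Nkd1, at −0.40. These were also the members with an unadjusted limma p under 0.05 in dcKO (2 of 7, against 9.89% of all probes). Neither single knockout had such a member, where 6.18% (Sox4 cKO) and 7.05% (Sox11 cKO) of all probes had an unadjusted p under 0.05. The median over the 7 genes was −0.25 in dcKO, against −0.00012 over all probes. It was 0.08 in Sox4 cKO (0.00062 over all probes) and −0.01 in Sox11 cKO (−0.0028). In dcKO, 4 of 7 genes were lower on both arrays and 1 was higher on both, where 25.2% and 24.6% of all probes behaved so.

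The ratios are log2 of knockout over wild type, after background correction. An offset of 16 had been added to every signal, which draws the ratio of a dim probe towards 0. Intervals are 95% intervals of the limma estimate from 2 arrays per genotype, with the spread shared over all 6 arrays. A probe was counted as measured in a channel where the scanner software marked it well above background, and a gene is represented by its brightest probe. Between 37.7% and 42.3% of all probes were well above background in a channel. Epidermal genes such as Krt5 and Krt14 were measured for 8 of 8 listed markers in every channel, as the tissue label implies. Of the deleted genes, Sox4 stood at −0.96 and −0.69 on the dcKO arrays (adjusted p = 0.077, limma), −0.14 and −0.71 on the Sox4 cKO arrays, and 0.05 and 0.18 on the Sox11 cKO arrays. Sox11, measured in 4 of 12 channels, stood at −0.96 and −0.48 (dcKO, adjusted p = 0.20), 0.26 and −0.17 (Sox11 cKO), and −0.24 and 0.41 (Sox4 cKO). The probes do not state whether they lie in the deleted part, so they check the labels only in part, and the Sox11 cKO arrays were not separated from wild type by the Sox11 probe. The study reports a separate check, in which RT-qPCR tested the loss of Sox4 and Sox11 in the respective knockouts on the RNA later put on the arrays. The first Sox4 cKO array stood apart in its dermal fibroblast genes, whose median was −2.57 there and 0.77 on the second.

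**Figure D1:**
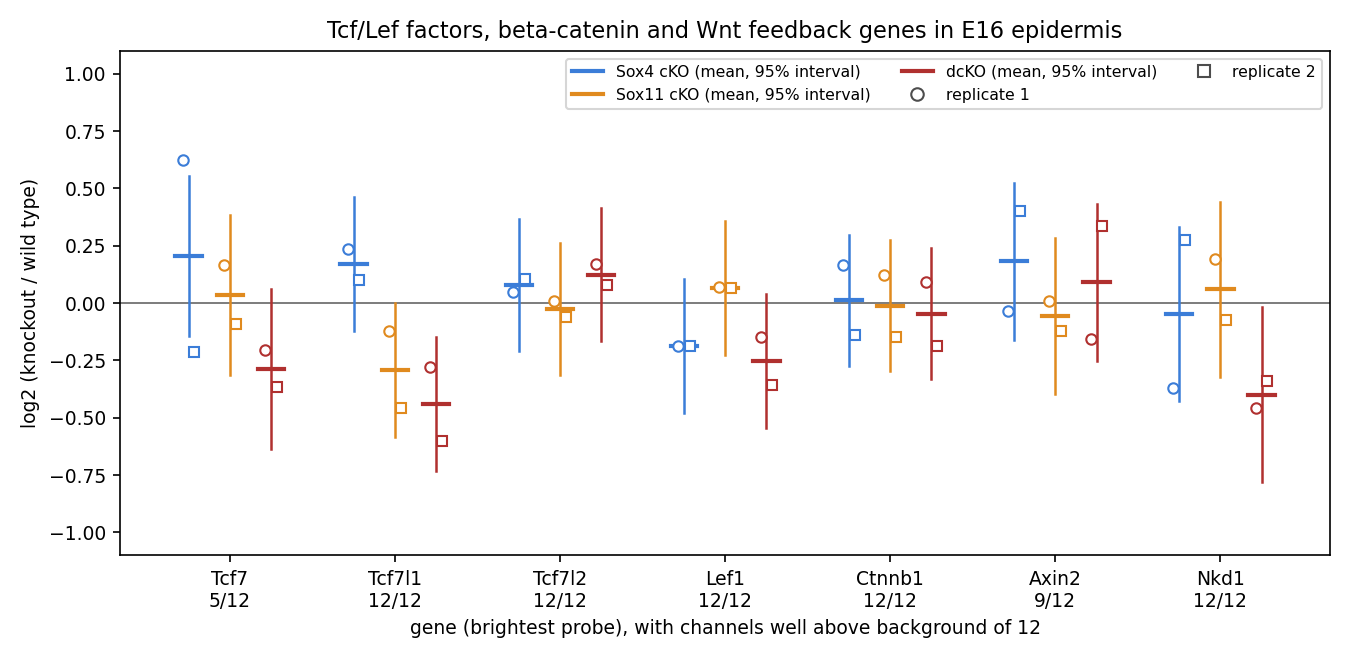
Log2 ratio of knockout over wild type (y axis) for the brightest probe of each of the 7 genes (x axis, with the number of the 12 channels in which it was well above background). Open symbols are arrays, horizontal bars the limma estimate and vertical lines its 95% interval. Tcf7l1 lies above 0 on both Sox4 cKO arrays and below 0 on the other 4 arrays, Ctnnb1 changes sign with the replicate in each genotype, and the dcKO intervals of Tcf7l1 and Nkd1 do not reach 0.

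Tcf7l1, the Tcf3 protein of the older literature, had a single probe that was measured in all 12 channels. Its ratio was 0.24 and 0.10 on the Sox4 cKO arrays, −0.12 and −0.46 on the Sox11 cKO arrays and −0.28 and −0.60 on the dcKO arrays. The Sox4 cKO arrays were thus both above 0 and the arrays of the other genotypes all below it. Against wild type the estimate was 0.17 in Sox4 cKO (95% interval −0.12 to 0.46, limma adjusted p = 0.88), −0.29 in Sox11 cKO (−0.58 to 0.00052, adjusted p = 0.71) and −0.44 in dcKO (−0.73 to −0.15, adjusted p = 0.26, unadjusted p = 0.0078). The call in dcKO depended on how the dye effect was removed. With ComBat, the batch method named in the study's methods, the estimate stayed at −0.44 and the adjusted p was 0.020, in a fit that does not count the degree of freedom spent on the dye and that called 6.52% of all probes. In the probe's own signal, the wild-type channels spanned 5.80 to 6.39 on the log2 scale and the dcKO channels read 5.52 and 5.48, below all 6 wild-type channels. The Sox4 cKO channels, at 6.09 and 5.90, and the Sox11 cKO channels, at 5.94 and 5.93, lay inside the wild-type range.

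The differences between genotypes did not pass for Tcf7l1 either. dcKO lay 0.61 log2 units below Sox4 cKO (estimate −0.61, 95% interval −1.02 to −0.20, limma unadjusted p = 0.0087, adjusted p = 0.63). Sox4 cKO lay above Sox11 cKO by 0.46 (0.048 to 0.87, adjusted p = 0.93), and dcKO differed from Sox11 cKO by −0.15 (−0.56 to 0.26, adjusted p = 0.91). Against the sum of both single knockouts dcKO differed by −0.32 (−0.83 to 0.19, adjusted p = 0.87). In these 4 contrasts 0 of 7 members passed, where 0.147%, 0.0018%, 0.163% and 0.088% of all probes were called in the order given. Tcf7l1 was the only member with an unadjusted p under 0.05 in the first and the second of them (6.12% and 5.28% of all probes), and 0 of 7 had one in the third and the fourth (7.21% and 6.38%).

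The upstream sequence of Tcf7l1 is shown because it was the member with the lowest dcKO value, and that of Tcf7l2 because it stayed near 0 while holding the same kind of letters. Sox proteins are known to bind cores such as ACAAAG and ACAATG. These letters were searched on both strands in the 250 bases before each annotated start (RefSeq, GRCm38.p6), and capitals mark the match, which reads here as the reverse complement. The Tcf7l1 stretch lies at chr6:72789056-72789085 on the minus strand, 23 to 28 bases before the start at its capitals, and the Tcf7l2 stretch at chr19:55741695-55741724 on the plus strand, 98 to 103 bases before the start.
Tcf7l1: gccctgtcaaaaCTTTGTcgccgcagcggc
Tcf7l2: cgcccaaaggatCATTGTtggccgcccccg
Of the 13 annotated start windows of the 7 genes, 4 held such a core, from 3 genes (Tcf7l1, Tcf7l2 and an alternative start of Lef1), and 25.2% of all 32851 windows did. The Tcf/Lef letters CTTTGAT or CTTTGAA were in 0 of the 13 windows and in 7.48% of all windows. CTTTGT shares its first 5 letters with these, so the searches are not independent. A match is a description of the sequence, and binding was not measured here.

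Tcf7l2, the Tcf4 protein, is a Tcf factor that can act as activator or repressor. Its brightest probe was measured in all 12 channels and read 0.05 and 0.10 in Sox4 cKO, 0.01 and −0.06 in Sox11 cKO and 0.17 and 0.08 in dcKO. No array moved by more than 0.17 in either direction. The dcKO estimate was 0.12 (95% interval −0.16 to 0.41, limma adjusted p = 0.82), so an increase to 0.41 or a decrease to −0.16 remains within the interval. A second probe, also measured in all 12 channels, gave 0.07 and −0.04 on the dcKO arrays and an estimate of 0.02 (−0.27 to 0.31). The third, not well above background in any channel, read 0.20 and 0.56 in Sox11 cKO (estimate 0.38, adjusted p = 0.70) where the measured probes read −0.03 and −0.14.

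Lef1 had 2 probes, both measured in all 12 channels. The brighter probe read −0.19 and −0.19 in Sox4 cKO, 0.07 and 0.06 in Sox11 cKO and −0.15 and −0.36 in dcKO. All 4 arrays that lacked Sox4 were below 0 and both Sox11 cKO arrays just above it. The estimates were −0.19 in Sox4 cKO (95% interval −0.48 to 0.10, limma adjusted p = 0.86), 0.07 in Sox11 cKO (−0.23 to 0.36, adjusted p = 0.95) and −0.25 in dcKO (−0.54 to 0.04, adjusted p = 0.57). dcKO lay 0.32 below Sox11 cKO (estimate −0.32, −0.73 to 0.09, adjusted p = 0.76) and 0.06 below Sox4 cKO (estimate −0.06, −0.48 to 0.35, adjusted p = 0.99). The second probe did not repeat the split between genotypes: it read 0.0027 and −0.25 in Sox4 cKO, 0.04 and −0.19 in Sox11 cKO and 0.02 and −0.48 in dcKO, lower on replicate 2 of each genotype, where the knockout carried Cy3. Its dcKO estimate was −0.23 (−0.53 to 0.07, adjusted p = 0.62). By brightest probe, both arrays of Sox4 cKO lay across 0 from both arrays of Sox11 cKO for 2 of 7 members, Tcf7l1 and Lef1, where 9.06% of all probes did. The same held between dcKO and Sox4 cKO for 1 of 7, Tcf7l1 (9.15% of all probes), and between dcKO and Sox11 cKO for 1 of 7, Lef1 (9.9%).

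Lef1 is itself a placode gene, and its brighter probe ran beside a list of 9 placode genes that did not include it. On the Sox4 cKO arrays the median of that list was −0.19 and −0.20, on the Sox11 cKO arrays −0.04 and 0.10, and in dcKO −0.13 and −0.40. The brighter Lef1 probe had the same sign on 5 of 6 arrays. The second Lef1 probe, also measured in all 12 channels, did not repeat this. It was above 0 on the first array of each genotype (0.0027, 0.04 and 0.02), where the list was below 0. On the second Sox11 cKO array it read −0.19, where the list was above 0. Its sign was that of the list on the second Sox4 cKO and dcKO arrays (−0.25 and −0.48). Of the list, 8 of 9 genes were measured in some channel and Edar in none. In dcKO 5 had an unadjusted limma p under 0.05 and a value below 0, and 2 had such a p and a value above 0. Of all probes, dim ones included, 9.89% had such a p, and 0 of the list passed after adjustment. The summed signal of the list, knockout against wild type, was 2356 against 2596 and 1970 against 2239 on the Sox4 cKO arrays. It was 1632 against 1640 and 1627 against 1568 on the Sox11 cKO arrays. On the dcKO arrays it was 2640 against 2024 and 1956 against 2221. In a peeled sheet, fewer placode cells and less Lef1 RNA per cell cannot be told apart, and the part of the placode genes in the Lef1 values was not tested.

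Tcf7, the Tcf1 protein best known from T cells and also a Wnt target, was close to background. Its brightest probe was measured in 5 of 12 channels and read 0.62 and −0.21 in Sox4 cKO, 0.16 and −0.09 in Sox11 cKO and −0.21 and −0.37 in dcKO. The dcKO arrays were both below 0 and the replicates of the other genotypes disagreed in sign. In dcKO the gene was measured in both wild-type channels (5.08 and 5.39 on the log2 scale) and not well above background in either knockout channel (4.87 and 5.03). The limma estimate was −0.29 (95% interval −0.63 to 0.06, adjusted p = 0.60), so no change remains within the interval. Taken from the signals alone, without their spread, a bound of 1.13-fold lower signal in dcKO was obtained. This bound sets the wild-type mean against, on each array, the higher of the knockout signal and the lowest signal counted as measured, and dye bias on a single array enters it. In Sox4 cKO 1 knockout channel and no wild-type channel was measured, with an estimate of 0.21 (adjusted p = 0.88) that turned to −0.11 without the first Sox4 cKO array. The other Tcf7 probe was not well above background in any channel. Of 6 T cell markers on the array, Cd3e was measured in all 12 channels and the other 5, Ptprc and Cd3d included, in none.

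**Figure D2:**
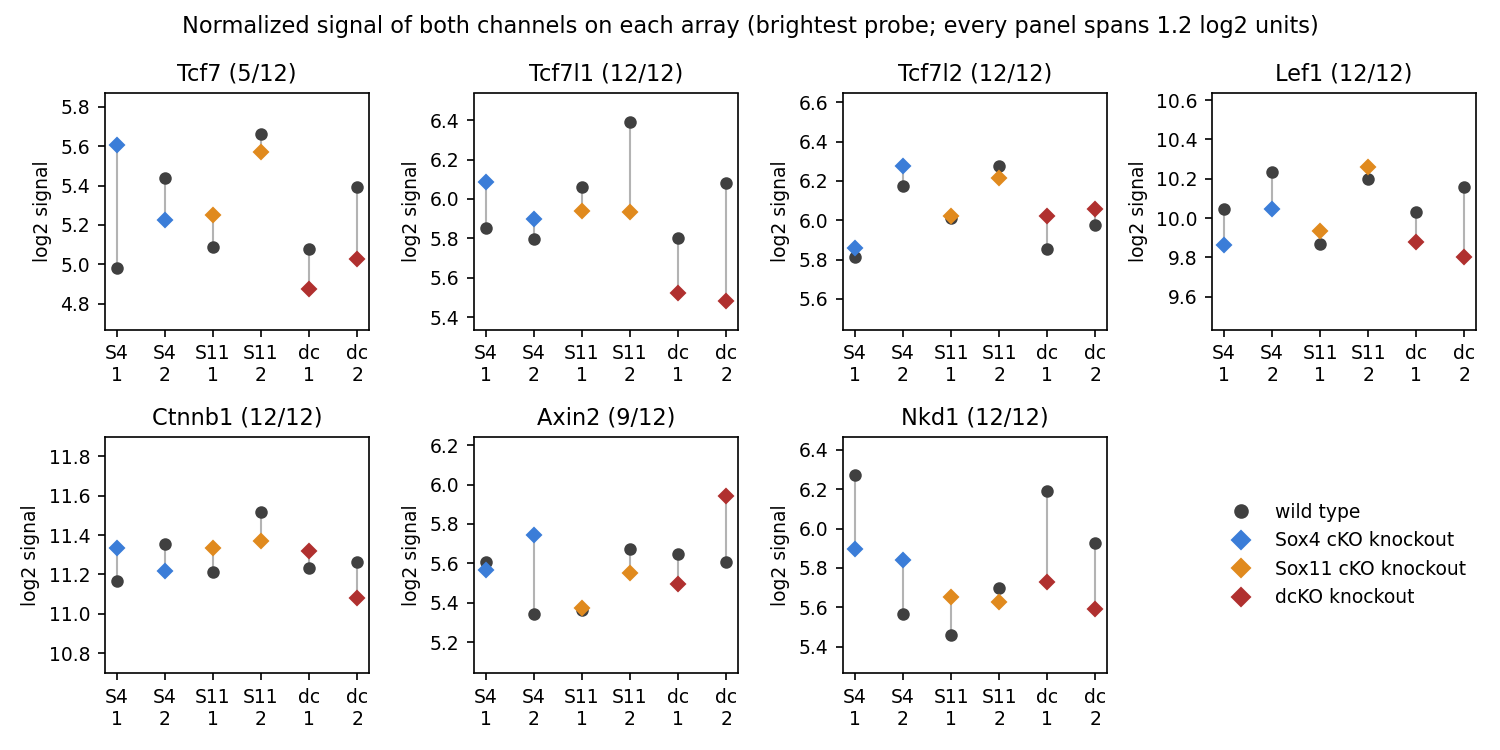
Normalized log2 signal (y axis) of the wild-type channel (dark circles) and the knockout channel (coloured diamonds) on each of the 6 arrays (x axis, S4 Sox4 cKO, S11 Sox11 cKO, dc dcKO, replicates 1 and 2), joined within an array, for the brightest probe of each gene. Each panel has its own range with an equal span, so heights are not comparable between genes; Tcf7l1 reads 5.52 and 5.48 in the dcKO channels, under every wild-type channel, and the wild-type Nkd1 signal itself spans 5.46 to 6.27.

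Beta-catenin, the co-activator shared by all Tcf/Lef factors, was measured in all 12 channels. Ctnnb1 read 0.17 and −0.14 in Sox4 cKO, 0.12 and −0.15 in Sox11 cKO and 0.09 and −0.19 in dcKO. Replicate 1 was above 0 and replicate 2 below 0 in each genotype, which follows the dye that the knockout carried. Once the dye coefficient took this up, the estimates were 0.01 in Sox4 cKO (95% interval −0.27 to 0.30), −0.01 in Sox11 cKO (−0.30 to 0.27) and −0.05 in dcKO (−0.33 to 0.24), with limma adjusted p-values of 0.996, 0.99 and 0.95.

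Axin2, the feedback scaffold of the destruction complex that is widely used to report Wnt activity, was measured in all 6 wild-type channels and 3 of 6 knockout channels. It read −0.04 and 0.40 in Sox4 cKO, 0.01 and −0.12 in Sox11 cKO and −0.15 and 0.34 in dcKO. Replicates disagreed in sign in each genotype. The estimates were 0.18 (95% interval −0.16 to 0.52), −0.06 (−0.40 to 0.29) and 0.09 (−0.25 to 0.43), with limma adjusted p-values of 0.89, 0.96 and 0.90. Its other probe was not well above background in any channel and gave −0.51 and −0.11 in dcKO (estimate −0.31, adjusted p = 0.49), the opposite sign to the measured probe.

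Nkd1, which binds Dishevelled and restrains the Wnt signal, had a brightest probe measured in all 12 channels. It read −0.37 and 0.27 in Sox4 cKO, 0.19 and −0.07 in Sox11 cKO and −0.46 and −0.34 in dcKO. Both dcKO ratios were below 0, and that of the first Sox4 cKO array lay beside them while the second lay above 0. In the signals, the dcKO channels read 5.73 and 5.59, inside the wild-type range of 5.46 to 6.27. The Sox11 cKO channels read 5.65 and 5.62. The wild-type channels of the dcKO arrays read 6.19 and 5.93, and that of the first Sox4 cKO array 6.27. The dcKO estimate was −0.40 (95% interval −0.78 to −0.019, limma unadjusted p = 0.041, adjusted p = 0.48), and dcKO differed from Sox4 cKO by −0.35 (−0.89 to 0.19, adjusted p = 0.89) and from Sox11 cKO by −0.46 (−0.995 to 0.079, adjusted p = 0.73). In Sox4 cKO the estimate was −0.05 (−0.43 to 0.33), and it was 0.31 without the first array and −0.41 without the second. In Sox11 cKO it was 0.06 (−0.32 to 0.44, adjusted p = 0.97). The other Nkd1 probe, not well above background in any channel, read −0.04 and −0.47 in dcKO (estimate −0.26, adjusted p = 0.72).

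Nkd1 had the sign of the dermal fibroblast genes on 6 of 6 arrays. For 9 such genes the median read −2.57 and 0.77 in Sox4 cKO, 0.94 and −0.65 in Sox11 cKO and −1.63 and −1.36 in dcKO. Of this list 8 of 9 genes were measured in some channel and Prrx1 in none, and Col3a1 read −4.36 on the first Sox4 cKO array. The list was not uniform in dcKO, where 7 genes were below 0 and 2 above it (highest 0.58). At an unadjusted limma p under 0.05 there were 4 lower and 2 higher in dcKO, and 0 passed after adjustment. The summed signal of the list, knockout against wild type, was 11276 against 22682 and 12535 against 8594 on the Sox4 cKO arrays. It was 7460 against 6910 and 7936 against 8312 on the Sox11 cKO arrays. On the dcKO arrays it was 10066 against 13061 and 8638 against 9252. The median of −2.57 thus came from the array with the highest wild-type sum. Among the 49 pairs of a member (brightest probe) and a marker list, this was the 1 pair with equal signs on all 6 arrays. At the other end, 1 pair, Tcf7l2 with the placode list, matched on 0. Of the rest, 4 pairs matched on 5 arrays (Lef1 with the placode list among them), 10 on 4, 18 on 3, 13 on 2 and 2 on 1. The counts were thus spread about evenly around 3 arrays, and the match of Nkd1 is a description. The share of all probes with such a match was not counted. The wild-type channels of Nkd1 spanned 5.46 to 6.27 and the knockout channels 5.59 to 5.90. The part of dermal RNA in the Nkd1 values was not tested. Tcf7l1 had the sign of the fibroblast genes on 4 of 6 arrays, both dcKO arrays included, and the part of dermal RNA in its values was not tested either.

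**Figure D3:**
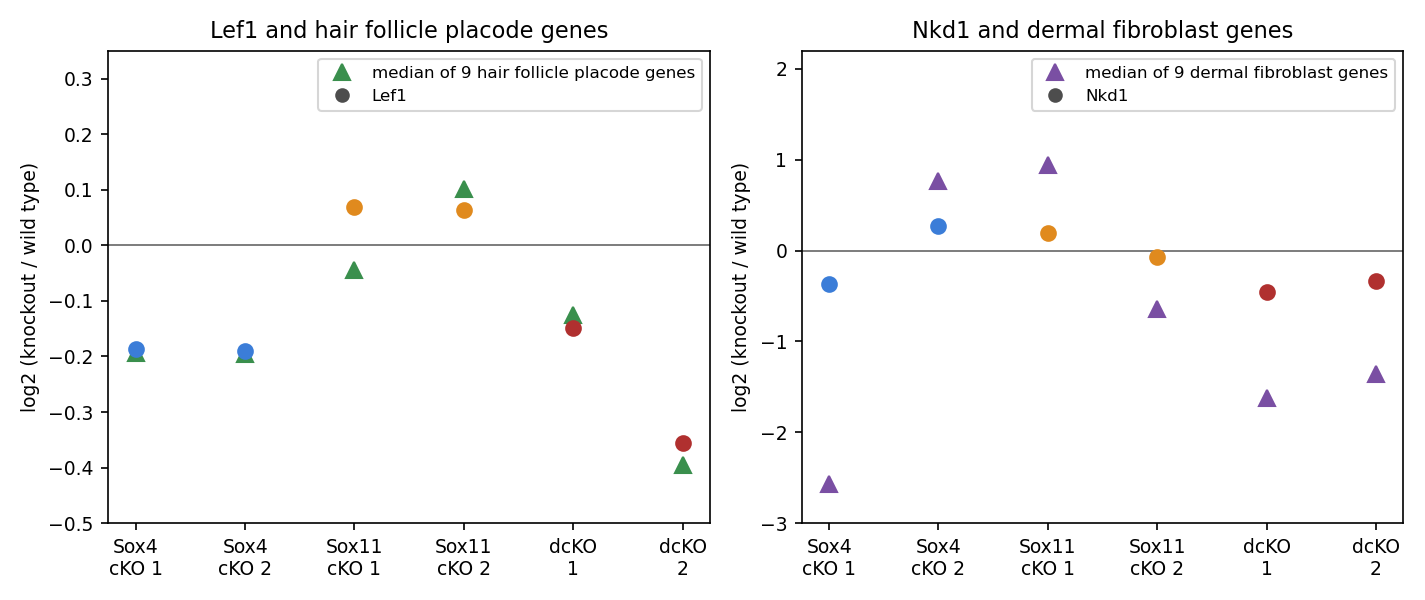
Log2 ratio of knockout over wild type on each array for Lef1 beside the median of 9 hair follicle placode genes (left) and for Nkd1 beside the median of 9 dermal fibroblast genes (right). Circles are the brightest probe of the gene, coloured by genotype, and triangles the list. Lef1 matches the sign of its list on 5 of 6 arrays and Nkd1 on 6 of 6. The second Lef1 probe is not drawn and did not repeat the match. The y axes differ between panels.

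Where a gene had several probes, those not well above background said little. Of the 13 probes, 7 were measured in all 12 channels, and among these the dcKO estimates ran from −0.44 (Tcf7l1) to 0.12 (Tcf7l2).

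**Figure D4:**
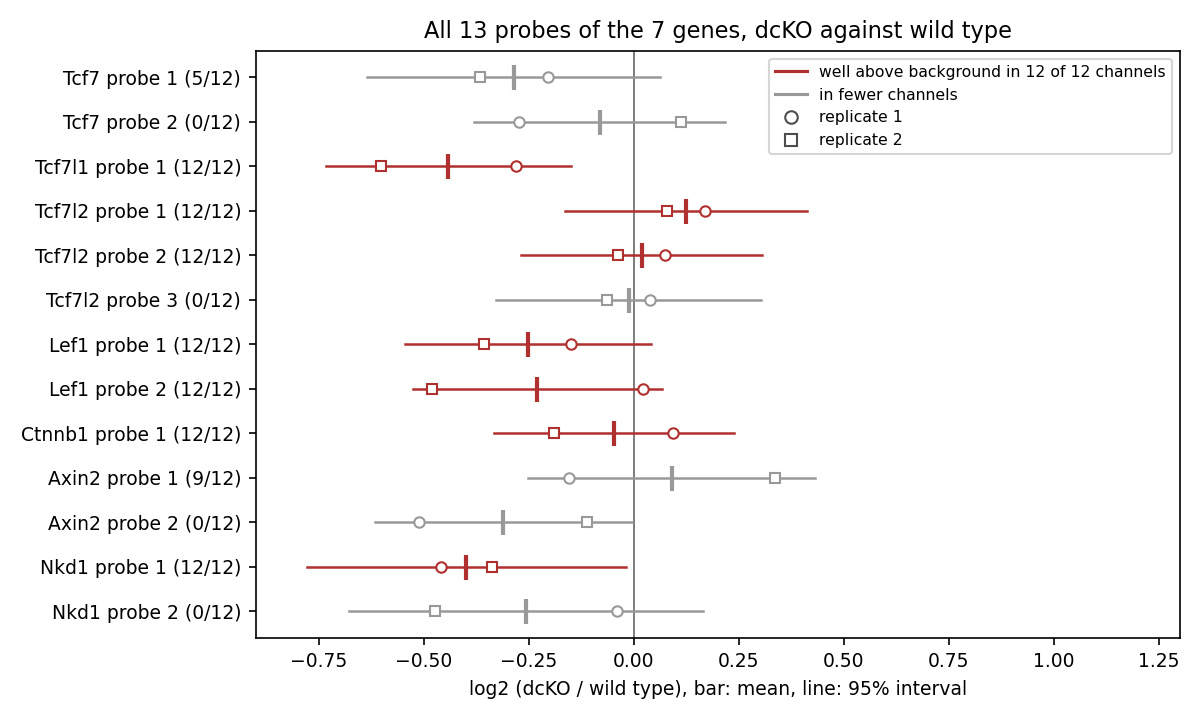
Log2 ratio of dcKO over wild type (x axis) for all 13 probes of the 7 genes (y axis, with the number of the 12 channels in which each was well above background). Symbols are the 2 arrays, vertical bars the limma estimate and horizontal lines its 95% interval; the probes measured in all channels run from −0.44 for Tcf7l1 to 0.12 for Tcf7l2.

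Genes with a profile like that of a Tcf/Lef factor were sought by Pearson correlation over the 6 dye-adjusted array values. The search covered 4094 probes of named genes, measured in both channels of all arrays with a range of at least 0.5. The most alike genes were Pik3c2g (r = 0.992), U2af2 (0.988) and Strn3 (0.986) for Tcf7l1, Supt6 (0.998), Sema6a (0.996) and Rras (0.995) for Tcf7l2, and Ezh2 (0.988), Krt17 (0.987) and Arid2 (0.984) for Lef1. The range rule was not applied to the factors themselves. Tcf7l2 spanned only −0.04 to 0.15 and Lef1 −0.32 to 0.10, so their high r values match nearly flat profiles. The 6 points share arrays and a dye correction and stem from 3 genotypes, so these values are descriptions. Tcf7 was not assessed because it was not measured on every array.

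Around the members, 93 other genes of the Wnt pathway were on the array, of which 73 were measured in some channel. In dcKO 2 passed with higher and 1 with lower expression, where 0.524% and 0.309% of all probes did. In the single knockouts and in the 4 contrasts between genotypes 0 passed. At an unadjusted limma p under 0.05 there were 23 of 93 in dcKO, where 9.89% of all probes had such a p. Of these 5 were higher and 18 lower, against 4.95% of all probes in each direction. There were 7 of 93 in Sox4 cKO and 6 of 93 in Sox11 cKO, near the 6.18% and 7.05% over all probes. The median of the 93 genes in dcKO was −0.09. The shares over all probes include dim probes, while each of the 93 genes is given by its brightest probe. Among the 24747 probes well above background on at least 2 arrays, fitted alone, 2.3% passed in dcKO. The share of such probes with an unadjusted p under 0.05 was not computed, so whether 23 of 93 exceeds it is not known.

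Among the 21 Wnt ligand and release genes, Porcn, the acyltransferase that attaches the lipid a Wnt protein needs for secretion, rose in dcKO. It read 0.73 and 0.71 on the dcKO arrays against 0.20, −0.07, −0.04 and −0.17 on the others, so the dcKO arrays did not overlap with the rest. The estimate was 0.72 (95% interval 0.43 to 1.01, limma adjusted p = 0.048). dcKO exceeded Sox11 cKO by 0.83 (adjusted p = 0.29) and Sox4 cKO by 0.66 (adjusted p = 0.57), which did not pass. The call was at the edge: it was lost in 12 of 17 other settings, the removal of any of the 6 arrays included (adjusted p from 0.053 to 0.53, with estimates of 0.81 and 0.63 without a dcKO array), while the value ran from 0.53 to 0.96. Wnt5b, named here after its values were seen, was the ligand with the lowest value, at −0.69 and −0.74 in dcKO (adjusted p = 0.055).

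Among the 13 secreted inhibitors, Sostdc1, an antagonist of Wnt and BMP signals in skin appendages, fell in dcKO. It read −0.52 and −1.05 on the dcKO arrays. With −0.36 and −0.67 on the Sox4 cKO arrays and −0.15 and −0.44 on the Sox11 cKO arrays, its brightest probe was below 0 on all 6. The dcKO estimate was −0.79 (95% interval −1.08 to −0.49, limma adjusted p = 0.033), and a second probe measured in all 12 channels gave −0.86 (adjusted p = 0.021). On the Sox11 cKO arrays that second probe read 0.01 and −0.27 (estimate −0.13, adjusted p = 0.88). With the brightest probe the estimate was −0.51 in Sox4 cKO and −0.30 in Sox11 cKO, neither of which passed (adjusted p = 0.78 and 0.71), and dcKO did not differ from either past the threshold. The call was lost in 6 of 17 other settings, among them the removal of either dcKO array (estimates −0.90 and −0.67), with the direction kept in all 17. Wif1, a secreted Wnt binder named after its values were seen, read lower still in dcKO, at −0.86 and −0.96, with −0.97 and 0.38 on the Sox4 cKO arrays, and 0.11 and −0.83 on the Sox11 cKO arrays (adjusted p in dcKO = 0.35). Wif1 thus had the sign of the dermal fibroblast median on 6 of 6 arrays. Because Wif1 was picked from these values and the share of all probes with such a match was not counted, nothing is concluded from it.

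Among the 13 genes of the relay and destruction complex, Ctnnbip1, also called ICAT, which binds beta-catenin and blocks its contact with Tcf proteins, rose in dcKO. It read 1.11 and 1.24 on the dcKO arrays, 0.18 and −0.08 on the Sox4 cKO arrays, and −0.22 and 0.87 on the Sox11 cKO arrays. The dcKO arrays were above the rest, with the second Sox11 cKO array nearest to them. The wild-type signal itself spanned 8.97 to 10.42 on the log2 scale, and its lowest value was on that second Sox11 cKO array. The dcKO channels read 11.42 and 10.65, above all wild-type channels, and the first Sox4 cKO knockout channel read 10.61. The estimate was 1.18 (95% interval 0.70 to 1.65, limma adjusted p = 0.047), and the call was lost in 8 of 17 other settings, the removal of either dcKO array included (estimates 1.04 and 1.32), with values from 1.04 to 1.32. dcKO exceeded Sox4 cKO by 1.13 (adjusted p = 0.52) and Sox11 cKO by 0.85 (adjusted p = 0.63).

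No gene passed among the 21 receptor and R-spondin genes, the 11 nuclear partners or the 14 other Wnt response genes, and those named next had the lowest unadjusted p in dcKO among genes measured on both dcKO arrays. Of the receptors, Fzd2 read −0.90 and −0.81 in dcKO (estimate −0.85, limma adjusted p = 0.073). It read −0.90 on the first Sox4 cKO array, where the median ratio of the fibroblast genes was lowest, against −0.08 on the second. Fzd1 and Lrp6 gave dcKO estimates of −0.31 and −0.24 (adjusted p = 0.49 and 0.61). Of the nuclear partners, Bcl9, which links beta-catenin to Pygopus, read −0.60 and −0.69 (estimate −0.64, adjusted p = 0.074), and Ctbp1 −0.17 and −0.39. The co-repressor Tle1 read −0.43 and −0.24 with its brightest probe, whose wild-type signal was itself 9.53 and 9.41 on the dcKO arrays and 6.31 to 6.79 on the other 4. The other Tle1 probes were divided in dcKO. Of those measured in all 12 channels, the brighter gave −0.24 and −0.33 (estimate −0.29) and the dimmer −0.09 and 0.09 (estimate −0.0014). A probe measured in 8 of 12 channels gave −0.31 and −0.19 (estimate −0.25). The wild-type signal of each of these probes was also highest on the dcKO arrays. Of the response genes, Ccnd1 (cyclin D1) read −0.56 and −0.97 in dcKO (adjusted p = 0.11) and −0.22 and −1.27 in Sox4 cKO. Notum, an enzyme that strips the lipid from Wnt proteins, read 0.97 and 0.34 in dcKO (estimate 0.65, adjusted p = 0.18). Dkk4, a Wnt antagonist of placodes, read −0.17 and −0.90 in dcKO (estimate −0.54, adjusted p = 0.18) and was below 0 on all 6 arrays.

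**Figure D5:**
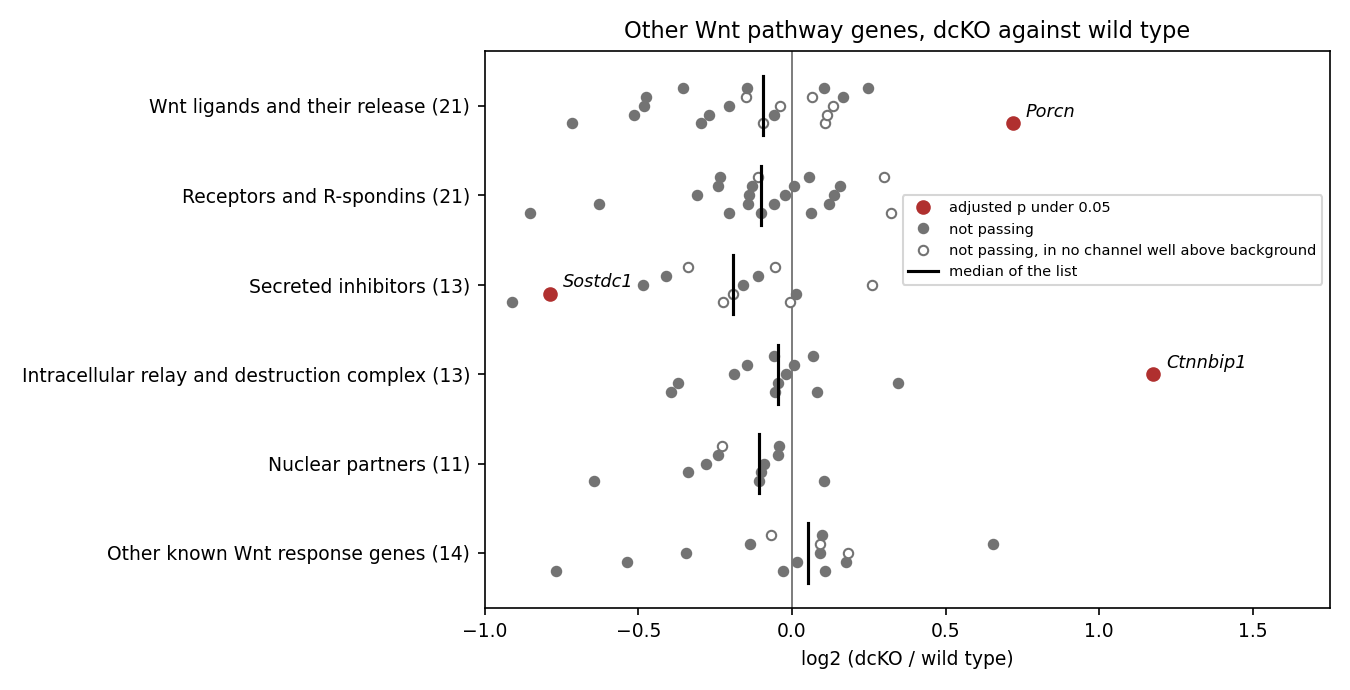
Log2 ratio of dcKO over wild type (x axis) for 93 other Wnt pathway genes in 6 lists (y axis, with the number of genes), 1 point per gene and a black bar at each list's median. Filled red points passed an adjusted p under 0.05 and open points were well above background in no channel; Porcn (0.72) and Ctnnbip1 (1.18) lie above 0 and Sostdc1 (−0.79) below.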

How the data were processed

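Total RNA of E16 epidermis was hybridised to 6 two-colour Agilent SurePrint G3 mouse arrays (all on 1 slide, read in 1 scan). The deposited scanner files hold spot intensities as median pixel brightness and a log10 ratio of red over green, extracted by the authors with Agilent Feature Extraction 11.0.1.1. The deposited value table holds log2 ratios that the authors made in limma 3.5 with normexp background correction, an offset of 16 and loess within each array. Recomputed from the intensities, these ratios matched the table with slope 1.00 in the direction knockout over wild type and without the ComBat colour adjustment of the study's methods. Symbols were assigned through RefSeq accessions (28331 of 55681 probes).

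The table was fitted with limma 3.58.1 in R 4.3.3 over all 6 arrays and 55681 probes, with 1 coefficient per genotype and 1 for the dye. The empirical Bayes step had 2 residual and 6.65 prior degrees of freedom, and Benjamini-Hochberg adjustment ran over all probes. Replicate 1 always carried the knockout in Cy5 and replicate 2 in Cy3, so the dye coefficient is also the replicate block. Same-numbered arrays deviated together (r = 0.26, 0.31 and 0.33 between genotypes). The number of arrays limits precision, and the replicates are called biological in the study's methods, while the sample titles only number them.

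Every member is described with all its probes. From each list of other pathway genes those that passed were named, and otherwise up to 3 with the lowest unadjusted p in dcKO among those well above background on both dcKO arrays in at least 1 channel. The members and lists were chosen with earlier results of these data known. Scripts were tested on simulated data. The alternatives were other background corrections and offsets, the Feature Extraction ratio, scaling between arrays, a filter on dim probes, ComBat (its model written out in R), no replicate block, the arrays of a comparison alone, the mean over probes, and each array left out. No probe or protein sequences were used here.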

Additional observations from a re-analysis of the deposited data

Results flagged for a closer look

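For 8 of 57 differences between genotypes (19 genes described in the text, 3 pairs of genotypes) both arrays of one genotype lay on the opposite side of 0 from both arrays of the other, and each difference was tested in limma. Over all probes such a separation was seen in 9.06% for Sox4 cKO and Sox11 cKO, 9.15% for dcKO and Sox4 cKO and 9.9% for dcKO and Sox11 cKO. Apart from the 7 members, the genes searched had been named by their p in dcKO on these same arrays. That choice can favour separations that involve dcKO, so the count and these shares are not a like comparison. None of the 8 passed, and none had an adjusted p under 0.29. Tcf7l1 was above 0 in Sox4 cKO and below 0 in both other genotypes, with a difference of 0.46 for Sox4 cKO minus Sox11 cKO (adjusted p = 0.93) and −0.61 for dcKO minus Sox4 cKO (adjusted p = 0.63). Lef1 was below 0 in Sox4 cKO and dcKO and above 0 in Sox11 cKO, with −0.25 for Sox4 cKO minus Sox11 cKO (adjusted p = 0.95) and −0.32 for dcKO minus Sox11 cKO (adjusted p = 0.76), and its second probe did not show the split. Porcn was above 0 in dcKO and below 0 in Sox11 cKO, with a difference of 0.83 (adjusted p = 0.29). The receptor gene Fzd1 gave 0.32 for Sox4 cKO minus Sox11 cKO (adjusted p = 0.94) and −0.41 for dcKO minus Sox4 cKO (adjusted p = 0.82). The co-repressor gene Tle1 gave −0.48 for dcKO minus Sox4 cKO (adjusted p = 0.78), with a wild-type signal that differed between these arrays (9.41 to 9.53 against 6.31 to 6.73). Its other probes disagreed in sign for this difference. Those measured in all 12 channels gave −0.25 and 0.13, and one measured in 8 of 12 channels gave −0.19.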

How the results depend on the processing

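The number of members passing was 0 of 7 in each of the 7 comparisons and under each alternative run, leave-one-out fits included (lowest 0, highest 0), with 1 exception. With ComBat in place of the dye coefficient, 1 of 7 passed in dcKO against wild type (Tcf7l1, adjusted p = 0.020), in a fit that called 3628 probes against 464. Without the replicate block 0 of 7 passed in every comparison, and Porcn, Sostdc1 and Ctnnbip1 lost their calls in dcKO (adjusted p = 0.11, 0.15 and 0.079). These 3 genes also lost them without either dcKO array, and under the Feature Extraction ratio and normexp with no offset (the latter chosen after seeing the data), which called 0 of all 55681 probes in dcKO and so say nothing about single genes. Tcf7l1 in dcKO kept its direction under all 17 alternatives, from −0.70 to −0.26, as did Nkd1, from −0.83 to −0.25. The cause of these changes was not tested. A slide block was not run because all arrays share 1 slide, and arrays taken alone give no value for the sum of both single knockouts.

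Values that did not pass turned sign as follows. Without background subtraction Nkd1 in Sox4 cKO was 0.013, Tcf7 in Sox11 cKO −0.060 and Axin2 in Sox11 cKO 0.033. With the Feature Extraction ratio Nkd1 in Sox4 cKO was 0.039, Lef1 in Sox11 cKO −0.024 and Ctnnb1 in Sox11 cKO 0.0068. With the mean over probes Nkd1 was 0.034 in Sox4 cKO and −0.053 in Sox11 cKO, Tcf7 −0.021, Tcf7l2 0.070 and Lef1 −0.0055 in Sox11 cKO, and Axin2 −0.11 in dcKO. Leaving out arrays in turn gave ranges across 0: in Sox4 cKO, −0.11 to 0.52 for Tcf7, −0.0027 to 0.027 for Ctnnb1 and −0.41 to 0.31 for Nkd1; in Sox11 cKO, −0.085 to 0.16 for Tcf7, −0.023 to 0.00023 for Ctnnb1, −0.35 to 0.24 for Axin2 and −0.27 to 0.38 for Nkd1; in dcKO, −0.078 to 0.26 for Axin2. In these fits the array left alone in its genotype is assumed to vary like the others. Signal over background limits Tcf7 and Axin2 most.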
